A study of Mus musculus with 47 samples.

Results

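The insulin-like growth factor (IGF) ligands, their receptors, the receptor substrates and the IGF binding proteins were followed after icv FGF1 in hypothalami from Lep ob/ob mice. They were the rows of the deposited bulk count table with the symbols Igf1, Igf2, Igf1r, Igf2r, Irs1, Irs2, Igfbp2, Igfbp3, Igfbp4 and Igfbp5. All 10 were found among the 14221 genes of the table, and none was removed by the filter on low counts. Each of the 47 libraries was made from 1 male mouse, labelled as 11 weeks of age and as ob/ob, so the lack of leptin was shared by the treated and the control mice. FGF1 was given once into the cerebral ventricle at 3 µg, and hypothalami were taken on Day 1 (n = 10), Day 5 (n = 9) or Day 42 (n = 5). Vehicle-injected controls were pair-fed (PF) to the FGF1 groups, and those labelled non-diabetic numbered 4 on Day 1, 7 on Day 5 and 5 on Day 42. On Day 5 there were also 7 PF vehicle mice labelled diabetic, and the labels give no such status for the FGF1 mice.

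IGF1 and IGF2 act through the IGF1 receptor, a tyrosine kinase that recruits the insulin receptor substrates IRS1 and IRS2 and through them PI3K, AKT and mTOR. The IGF2 receptor, which also carries mannose 6-phosphate tagged enzymes to lysosomes, takes up and removes IGF2. Most IGF in tissue is held by binding proteins, which limit or prolong its action and are opened by proteases such as PAPP-A. In the adult brain Igf2 is known to be made mostly by the meninges, the choroid plexus and vessels, whereas neurons and glia make Igf1, and IRS2 in the hypothalamus is known for its part in energy balance.

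Library totals ran from 1243280 to 47082403 counts. The lowest was FGF1 mouse 1 of Day 1, and all others had at least 7579695 counts. All libraries of a day shared 1 preparation code, so day and preparation cannot be told apart where levels are set side by side across days. FGF1 and vehicle mice of the same day always shared a code, but the deepest Day 5 libraries were from FGF1 mice. The highest Day 5 total was 30009258 counts with FGF1, against 9864890 in non-diabetic and 12451642 in diabetic-labelled vehicle mice. Day 5 FGF1 mice 8 and 9 stood apart, with 2967 and 2915 raw counts of Igf1r, against at most 1018 in all other Day 5 mice. All 12 hypothalamic neuron markers were counted in every library. The samples are bulk tissue, in which fewer cells of a type and less RNA per cell cannot be told apart. On Day 1, 8 of 8 markers of infiltrating or activated phagocytes were higher with FGF1 and 5 of 6 oligodendrocyte markers were lower, while of 10 meningeal fibroblast markers 4 were higher and 4 lower. Of 10 microglia markers 6 were higher and 1 lower, and 4 of 6 ependymal, 3 of 6 oligodendrocyte precursor and 2 of 5 choroid plexus markers were lower. Other lists went both ways. Higher and lower were 3 and 4 of 8 astrocyte, 1 and 4 of 7 tanycyte and 1 and 3 of 7 neuron markers. For endothelial cells they were 1 and 3 of 8, and for mural cells 2 and 3 of 8. Of all genes 45.0% passed on that day. The part of these cell types in the results below was not tested, except where values are given beside a result. Values are normalized counts, that is counts scaled by library total and TMM (CPM). Log2 fold changes (log2 FC) and adjusted p-values come from edgeR's quasi-likelihood test with Benjamini-Hochberg adjustment over all 14221 genes. Genes with an adjusted p below 0.05 are said to rise or fall, and DEGs also changed by more than 0.5 on the log2 scale.

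On Day 1 the binding proteins rose together. Igfbp2, Igfbp3, Igfbp4 and Igfbp5 were all DEGs with higher expression after FGF1, from 2.02-fold for Igfbp4 to 5.70-fold for Igfbp3. Irs2 and Igf2r rose by less than the DEG threshold, Igf2 fell from an already low level, and Igf1, Igf1r and Irs1 did not pass. In all, 7 of 10 members passed on Day 1, where 45.0% of all genes did. Of the members 4 were DEGs with higher expression (11.5% of all genes) and 1 was a DEG with lower expression (8.05%). The median log2 FC of the 10 members was 0.39, and that of all genes 0.01. On Day 5 only Igf2 passed among the members, in the opposite direction to Day 1, and on Day 42 no member did.

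**Figure D1:**
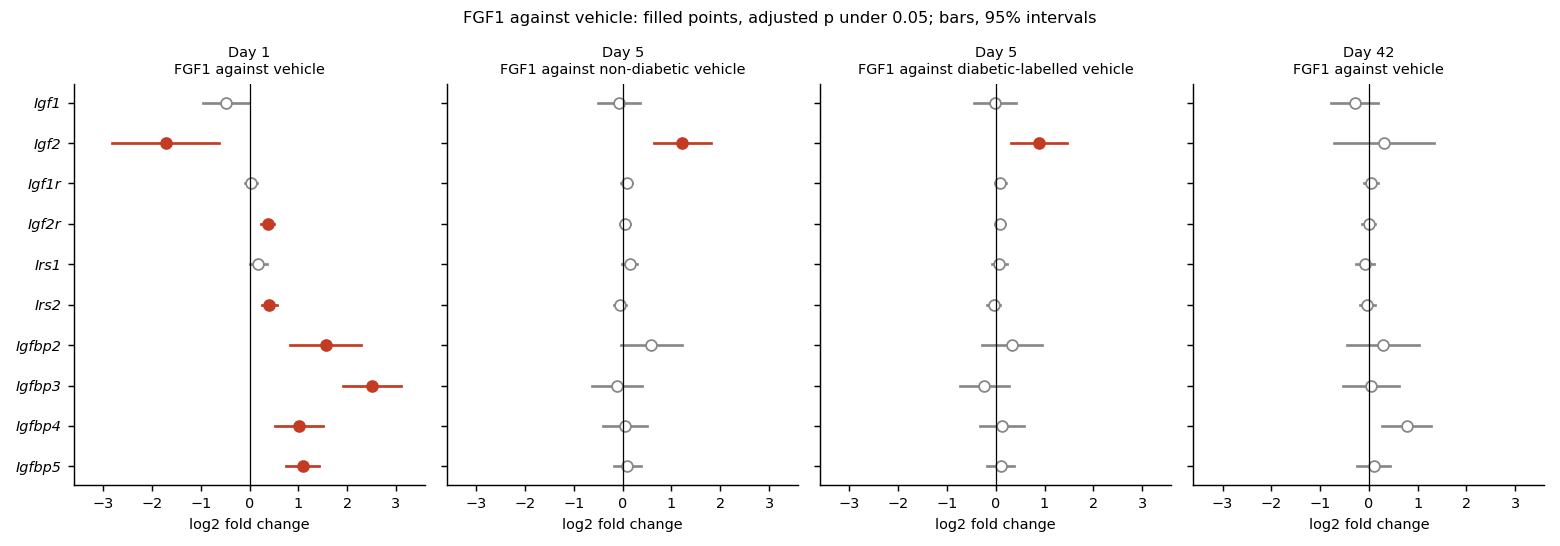
Log2 FC of the 10 members (rows) in the 4 comparisons of FGF1 with PF vehicle (panels), with 95% intervals as bars. Filled red points passed at an adjusted p below 0.05: 7 members on Day 1, only Igf2 on Day 5 in both comparisons, which share the FGF1 mice, and none on Day 42.

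Levels were compared between members as CPM per kb of exon, with exon lengths from GENCODE M21 annotation of GRCm38. Igfbp5 was the most abundant member in every group, with 42.9 ± 2.30 CPM per kb (SD, n = 4) in PF vehicle mice of Day 1. Irs2 came next there at 13.1 ± 0.450, and its range overlapped neither that of Igfbp5 nor that of Igfbp3, which followed at 6.69 ± 0.792. From Igfbp3 down to Igfbp4 (3.05 ± 0.354), the ranges of neighbours in the order (Igfbp2, Igf1r, Igf2r and Irs1 between them) overlapped. Igf1 at 0.577 ± 0.0432 and Igf2 at 0.189 ± 0.0820 stood below all of these without overlap.

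The level of several members differed between the days, where day and preparation cannot be told apart. Igf1r and Irs1 were nearly the same in the vehicle mice of all days, with highest and lowest group means 1.06 and 1.09 times apart. Igf2 was the other extreme, with a mean of 26.9 CPM in non-diabetic PF vehicle mice on Day 5 against 1.08 on Day 1 and 1.03 on Day 42. Igf2r was 2.57 times as high on Day 5 as on Day 1 in these mice, and Igfbp5 was 1.95 times as high on Day 1 as on Day 5. Igf1 was lowest on Day 1 (5.71) and highest on Day 42 (21.3).

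**Figure D2:**
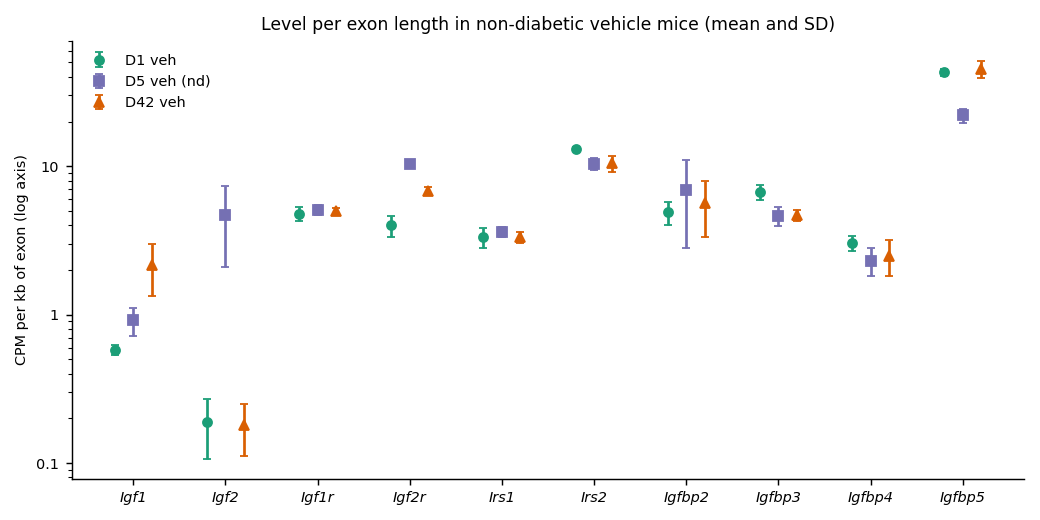
Level of each member in the non-diabetic PF vehicle mice of Day 1 (n = 4), Day 5 (n = 7) and Day 42 (n = 5), as mean and SD of CPM per kb of exon on a log axis. Igfbp5 lies highest on each day, and Igf2 is near 0.2 on Days 1 and 42 but 4.71 on Day 5.

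Igf1 (chr10:87858265-87937042, plus strand, GRCm38) encodes the ligand best known as the mediator of growth hormone action. On Day 1 its values ran from 2.44 to 7.00 CPM (median 3.38) in FGF1 mice, against 5.08, 5.82, 5.93 and 6.02 in PF vehicle mice. Of the 10 FGF1 mice, 8 lay below every vehicle mouse and 2 lay above all of them. The log2 FC of -0.48 (SE 0.24, 95% interval -0.95 to -0.0049) did not pass (adjusted p = 0.0933). The exact permutation test of this single gene, two-sided on log2(CPM + 0.5), gave p = 0.042 without adjustment. The exceptions were mice 9 and 10, and leaving out either one gave a call, with -0.58 (adjusted p = 0.0393) and -0.62 (adjusted p = 0.0224). On Day 5 its log2 FC was -0.07 against the non-diabetic and -0.01 against the diabetic-labelled vehicle mice, with 95% intervals of -0.51 to 0.36 and -0.44 to 0.42. On Day 42 it was -0.29 (95% interval -0.78 to 0.19), in groups that ran from 9.58 to 24.7 and from 12.1 to 29.7.

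Igf2 (chr7:142650766-142666816, minus strand) encodes the ligand of fetal growth. Its exons share 3694 of their 5723 bases with Gm49394 on the same strand or with the antisense RNA Igf2os, and neither of these has a row in the table, so reads from the shared stretch may have been counted in different ways. On Day 1 it was at the edge of detection. The 4 PF vehicle mice had 51, 41, 17 and 50 raw counts, and the 10 FGF1 mice had between 1 and 33 (median 6.5). In normalized counts this was 1.40, 1.16, 0.396 and 1.37 in the vehicle mice and 0.0328 to 0.906 (median 0.275) in the FGF1 mice. All 10 FGF1 mice lay below the vehicle median and 7 below every vehicle mouse, so the groups overlapped only through vehicle mouse 3. The log2 FC was -1.72 (SE 0.55, adjusted p = 0.00911). This call rests on few counts and was lost under quantile normalization (log2 FC -0.58, adjusted p = 0.169) and with sample weights in limma (-2.38, adjusted p = 0.296).

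On Day 5 Igf2 was measured at a far higher level and rose with FGF1. The 9 FGF1 mice ran from 26.9 to 105 CPM (median 60.9), the 7 non-diabetic PF vehicle mice from 9.05 to 49.0 (median 24.5) and the 7 diabetic-labelled ones from 14.2 to 48.7 (median 39.9). Of the FGF1 mice, 7 lay above every mouse of both vehicle groups. The log2 FC was 1.22 against the non-diabetic group (SE 0.29, adjusted p = 0.0061), a 2.33-fold rise, and 0.88 against the diabetic-labelled group (SE 0.29, adjusted p = 0.0411). Igf2 was the only member to pass in each of these comparisons, in which 4.65% and 9.21% of all genes passed and 1.31% and 2.36% were DEGs with higher expression. The call against the diabetic-labelled group was lost with DESeq2 (adjusted p = 0.133) and without any one of 10 mice (FGF1 mice 2, 3, 4, 6, 7 and 8 and vehicle mice 2, 5, 6 and 7), whose omission gave adjusted p-values up to 0.111. The call against the non-diabetic group held without each Day 5 mouse in turn, with adjusted p-values up to 0.0258.

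Meningeal markers had the same direction as Igf2 on Day 5, but most did not pass. All 10 had positive log2 FC against the non-diabetic vehicle mice (median 0.74), and 2 of the 10 passed: Lum, a collagen-binding proteoglycan, with 1.19, and Slc6a13, a GABA transporter, with 1.02. Against the diabetic-labelled mice all 10 were positive too (median 0.55), and 0 passed. Their summed level ran from 82.7 to 339 CPM in FGF1 mice, from 54.0 to 185 in non-diabetic and from 71.5 to 204 in diabetic-labelled vehicle mice. Of the 9 choroid plexus markers listed, Ttr, Folr1, Kcne2 and Slc4a5 had no row in the table. Of the 5 in the table none passed. Their summed level overlapped fully between the groups (29.1 to 38.1, 29.3 to 39.7 and 29.4 to 41.7). On Day 1 the meningeal markers Ogn (-2.83), Slc6a13 (-2.71), Slc22a6 (-3.73) and Fmod (-3.36) fell, as did Igf2, while Col3a1 (2.42), Dcn (1.39), Lum (2.24) and Aldh1a2 (1.65) rose. The 5 choroid plexus markers summed to 23.5 to 39.6 CPM with FGF1 and 45.9 to 60.1 with vehicle on Day 1, without overlap, and 2 of them fell, Clic6 (-1.31) and Kcnj13 (-3.51). Other marker lists held larger shares of rising genes on Day 5. Against the non-diabetic vehicle mice 5 of 8 astrocyte, 5 of 10 microglia and 2 of 8 phagocyte markers rose. So did 3 of 6 oligodendrocyte precursor and 3 of 6 oligodendrocyte markers. The part of any of these cell types in the Igf2 results was not tested.

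On Day 42 Igf2 was again near 1 CPM. The FGF1 mice had 0.892, 1.33, 1.24, 1.23 and 2.22 and the PF vehicle mice 0.696, 0.671, 1.503, 0.894 and 1.41, with a log2 FC of 0.32 (95% interval -0.71 to 1.34). The FGF1 effect on Igf2 differed between days, by 2.94 on the log2 scale from Day 1 to Day 5 (SE 0.62, adjusted p = 0.000276) and by 2.03 from Day 1 to Day 42 (SE 0.75, adjusted p = 0.0385). The first difference was lost with sample weights in limma (3.78, adjusted p = 0.106). The second was lost with these weights (2.64, adjusted p = 0.471), under quantile normalization (0.84, adjusted p = 0.233) and without any one of 13 mice, whose omission gave adjusted p-values up to 0.0798.

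**Figure D3:**
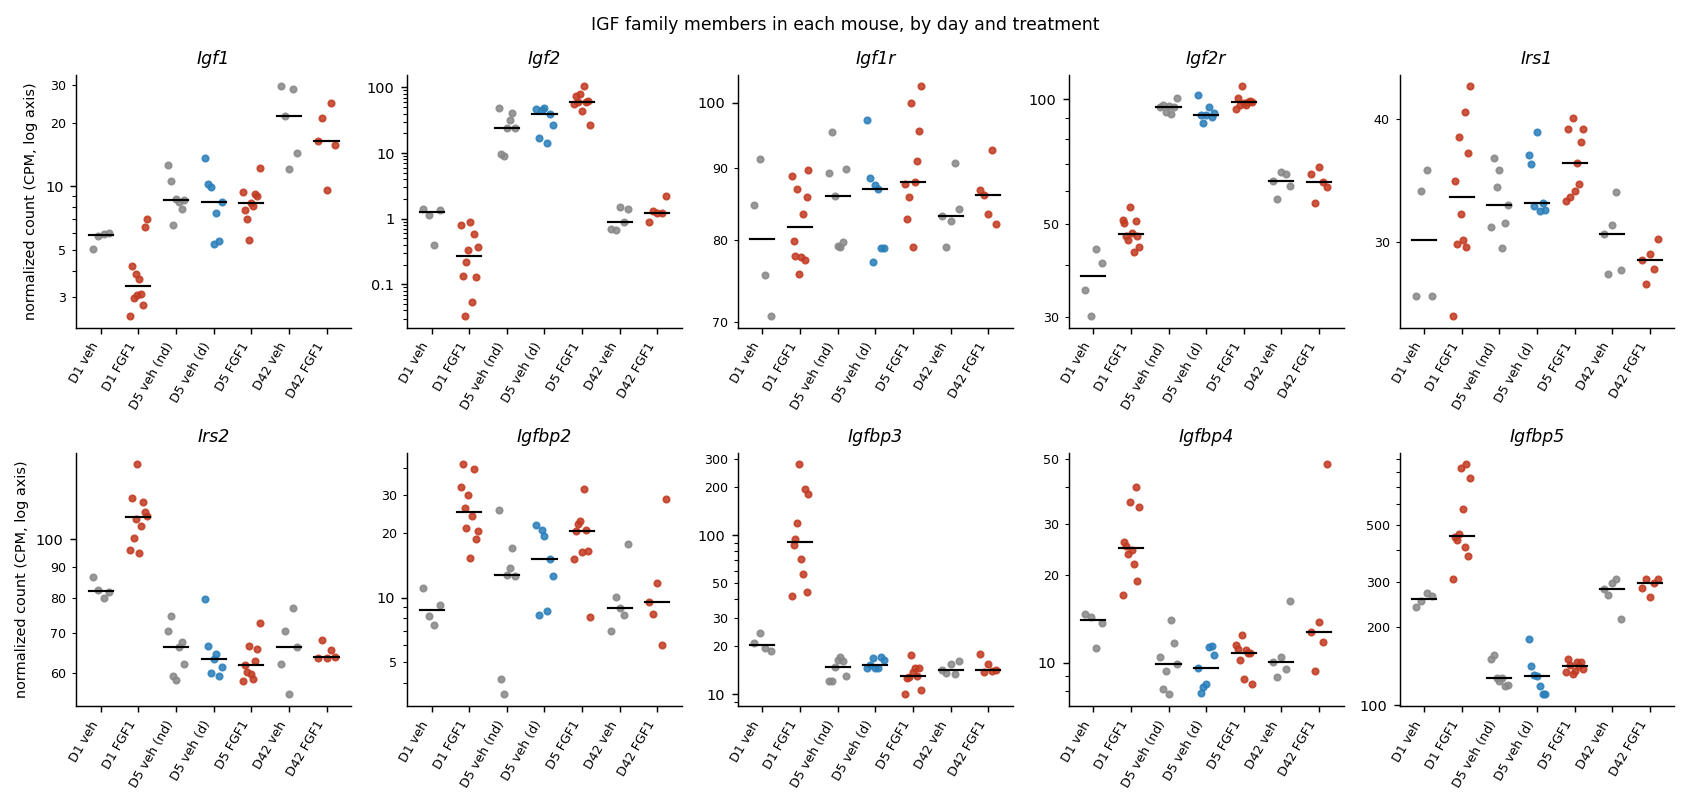
CPM of each member in every mouse on log axes, by group, with the group median as a black bar (grey, PF vehicle labelled non-diabetic; blue, PF vehicle labelled diabetic; red, FGF1). On Day 1 all red points of Irs2, Igfbp2, Igfbp3, Igfbp4 and Igfbp5 lie above all grey ones, and Igf2 lies far higher on Day 5 than on Days 1 and 42.

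Of the receptors, Igf1r (chr7:67952827-68233668, plus strand), the signalling receptor, did not pass in any comparison. Its values on Day 1 ran from 75.7 to 89.6 CPM (median 81.7) with FGF1, against 84.8, 91.3, 75.6 and 70.7 with vehicle. The log2 FC was 0.03 on Day 1 and between 0.04 and 0.09 in the other comparisons of FGF1 with vehicle. Their 95% intervals lay between -0.11 and 0.20, so that the DEG threshold was outside every one of them.

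Igf2r (chr17:12682406-12769664, minus strand), the receptor that clears IGF2, rose on Day 1. FGF1 mice ran from 43.0 to 55.1 CPM (median 47.4), and the vehicle mice had 34.8, 30.1, 43.7 and 40.3. All FGF1 mice but 1 lay above every vehicle mouse. The log2 FC of 0.37 (SE 0.06, adjusted p = 7.46e-06) stayed below the DEG threshold. On Day 5 its ranges overlapped, at 94.7 to 107 with FGF1 against 92.1 to 101 and 87.8 to 102 with vehicle. Against the diabetic-labelled group the log2 FC was 0.08 (adjusted p = 0.386), and 2 of 8 other settings gave a call. All 9 FGF1 mice lay above the median of that group, and the exact permutation test gave p = 0.0151 without adjustment. On Day 42 the log2 FC was -0.0014 (95% interval -0.14 to 0.13). The log2 FC of Day 5 minus that of Day 1 was -0.32 (adjusted p = 0.00311), and that of Day 42 minus Day 1 was -0.37 (adjusted p = 0.00228).

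Irs1 (chr1:82233101-82291416, minus strand) and Irs2 (chr8:10984681-11008458, minus strand) encode the docking proteins of the receptor, and only Irs2 passed. FGF1 mice of Day 1 had 95.03 to 133 CPM of Irs2 (median 109), and the vehicle mice had 86.7, 82.3, 80.1 and 81.6. The groups did not overlap, with a log2 FC of 0.41 (SE 0.08, adjusted p = 2.35e-05). On Day 5 Irs2 lay between 58.3 and 79.6 in all 3 groups, with log2 FC of -0.06 and -0.04, and on Day 42 its log2 FC was -0.03 (95% interval -0.19 to 0.13). Its log2 FC differed from that of Day 1 by -0.46 on Day 5 (adjusted p = 0.000418) and by -0.43 on Day 42 (adjusted p = 0.00252). Irs1 had 25.3 to 43.2 CPM (median 33.3) with FGF1 on Day 1, around the 26.5, 33.8, 35.5 and 26.5 of the vehicle mice. Its log2 FC was 0.18 (adjusted p = 0.093), and without vehicle mouse 3 it was 0.26 and passed (adjusted p = 0.026). On Day 5 it was 0.14 against the non-diabetic group (adjusted p = 0.379). It passed in 2 of 9 other settings, among them sample weights in limma (0.15, adjusted p = 0.0334). Irs1 shares 2822 exon bases with Gm9747 and Irs2 shares 162 with 9530052E02Rik, both on the opposite strand and neither with a row in the table. How the counting used strand is not given in the sources used here.

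The binding proteins were the members that changed most. Igfbp3 (chr11:7206086-7213923, minus strand), the main IGF carrier of plasma, had 41.6 to 279 CPM (median 91.2) in FGF1 mice of Day 1 and 21.2, 24.3, 19.7 and 18.7 in vehicle mice. The lowest FGF1 mouse, the one with the shallow library, was still above the highest vehicle mouse. The log2 FC was 2.51 (SE 0.29, 95% interval 1.92 to 3.10, adjusted p = 1.47e-09), the largest of all members and comparisons with vehicle. Within the FGF1 group, mice 5, 8 and 10 stood highest with 279, 195 and 183.

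Igfbp5 (chr1:72857932-72874884, minus strand), a carrier that also binds the extracellular matrix, had 308 to 855 CPM (median 452) with FGF1 and 241, 253, 273 and 264 with vehicle on Day 1. Its log2 FC was 1.09 (SE 0.17, adjusted p = 5.63e-07). The 3 highest mice were again 5, 8 and 10, with 826, 855 and 759, and all other FGF1 mice were at 575 or below. Igfbp4 (chr11:99041244-99054392, plus strand), the binding protein that PAPP-A cleaves, had 17.1 to 40.1 (median 24.7) with FGF1 and 14.6, 14.4, 11.2 and 13.7 with vehicle. Its log2 FC was 1.02 (SE 0.24, adjusted p = 0.000662), and mice 5, 8 and 10 were once more the highest with 35.5, 40.1 and 34.2.

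In the same 3 mice the summed level of the 8 phagocyte markers was also highest among the FGF1 mice, at 1923, 1558 and 2063 CPM, against 163 to 1144 in the other FGF1 mice and 42.4 to 66.6 in vehicle mice. So was that of the 10 meningeal fibroblast markers, at 425, 573 and 533, against 78.2 to 331 in the other FGF1 mice and 163 to 326 in vehicle mice. Their part in the rise of the binding proteins was not tested.

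Igfbp2 (chr1:72824503-72852474, plus strand), the binding protein of cerebrospinal fluid and of glia, had 15.2 to 41.7 CPM (median 25.1) with FGF1 and 11.1, 8.24, 7.47 and 9.22 with vehicle on Day 1. The groups did not overlap, and the log2 FC was 1.56 (SE 0.36, adjusted p = 0.000445). Its highest mice were 2 and 8, with 41.7 and 39.8, so it did not follow the order of the other binding proteins. Igfbp2 and Igfbp5 are neighbours whose 3' ends face each other 5.46 kb apart on chromosome 1. Together with Irs2, the binding proteins made 5 of the 10 members in which every FGF1 mouse of Day 1 lay above every vehicle mouse, where 7.56% of all genes did. The exact permutation test gave 0.000999, the smallest p that 10 mice against 4 allow, for Irs2, Igfbp2, Igfbp3 and Igfbp4, and 0.005 for Igfbp5.

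None of the binding proteins passed on Day 5. Igfbp3 had 9.99 to 17.8 CPM with FGF1 against 12.1 to 17.2 and 14.6 to 17.1 with vehicle, and its log2 FC was -0.12 and -0.23, with 95% intervals of -0.63 to 0.39 and -0.74 to 0.27. Igfbp5 had 132 to 151 with FGF1 against 118 to 156 and 110 to 181, and Igfbp4 had 8.46 to 12.5 against 7.77 to 14.0 and 7.87 to 11.4. These ranges lay inside or across those of the vehicle mice. For Igfbp3, 6 of the 9 FGF1 mice lay below every diabetic-labelled vehicle mouse and 1 above all of them. The exact permutation test of this single gene gave p = 0.0299 without adjustment, and p = 0.300 against the non-diabetic group. Igfbp2 had 8.15 to 31.9 with FGF1 against 3.54 to 25.4 and 8.33 to 21.9, with a log2 FC of 0.58 (95% interval -0.04 to 1.21, adjusted p = 0.354) against the non-diabetic group, and with sample weights in limma it passed (0.76, adjusted p = 0.0272). The log2 FC of Day 5 minus that of Day 1 was -2.63 for Igfbp3 (adjusted p = 3.73e-07), -0.99 for Igfbp5 (adjusted p = 0.000304) and -0.97 for Igfbp4 (adjusted p = 0.0239). Without vehicle mouse 3 of Day 1 the difference for Igfbp4 no longer passed (adjusted p = 0.0542). For Igfbp2 the difference of -0.98 had an adjusted p of 0.114.

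On Day 42 no gene of the table passed by edgeR, 0 members by DESeq2, and Igfbp4 was the only member with an unadjusted p below 0.05. Its FGF1 mice had 12.7, 9.35, 13.8, 11.8 and 48.0 CPM and its vehicle mice 10.1, 8.90, 10.4, 9.47 and 16.3. The log2 FC of 0.77 (adjusted p = 0.461) rested on FGF1 mouse 5, and it was 0.12 without that mouse. Igfbp2 had 28.9 in the same mouse against 6.04 to 11.6 in the other FGF1 mice, and its log2 FC went from 0.29 to -0.22 without it. This library stood apart in markers too. Its 5 choroid plexus markers summed to 244 CPM, against 23.6 to 48.1 in the other 9 mice of Day 42, and its 6 markers of cortex, thalamus or hippocampus neurons to 1015, against 150 to 902. Its 12 hypothalamic neuron markers summed to 492.8, against 772 to 1355. The part of other tissue in these values was not tested.

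Igfbp3 and Igfbp5 overlapped between the groups of Day 42. Igfbp3 had 17.9, 13.8, 15.5, 14.0 and 14.3 CPM with FGF1 and 14.2, 13.7, 15.6, 13.4 and 16.2 with vehicle, and Igfbp5 had 262 to 308 against 215 to 306. The log2 FC of Day 42 minus that of Day 1 was -2.46 for Igfbp3 (adjusted p = 4.77e-06) and -0.99 for Igfbp5 (adjusted p = 0.00111). For Igfbp4 the difference was -0.24 with all mice (adjusted p = 0.645) and -0.90 without FGF1 mouse 5 of Day 42 (adjusted p = 0.00386), and for Igfbp2 it was -1.27 (adjusted p = 0.0558) and -1.78 (adjusted p = 0.00437). Over all members, 6 of 10 passed in the difference between Days 5 and 1, 0 in that between Days 42 and 5 and 5 in that between Days 42 and 1, where 26.6%, 0.942% and 25.5% of all genes did. On Day 42 itself and between the vehicle groups of Day 5, 0% of all genes passed, while 776 and 193 genes had an unadjusted p below 0.05.

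The bases before the transcription start of the 4 binding proteins are shown because these genes rose together on Day 1. They are the 250 bases upstream of the RefSeq start in GRCm38.p6, printed 5' to 3' on the strand of the gene, at chr11:7213924-7214173 (Igfbp3, minus strand), chr1:72874866-72875115 (Igfbp5, minus strand), chr11:99040994-99041243 (Igfbp4, plus strand) and chr1:72824230-72824479 (Igfbp2, plus strand, the first of 2 listed starts). Capitals mark a TATA box (TATAAA) or a GC box (GGGCGG), searched on both strands.
Igfbp3: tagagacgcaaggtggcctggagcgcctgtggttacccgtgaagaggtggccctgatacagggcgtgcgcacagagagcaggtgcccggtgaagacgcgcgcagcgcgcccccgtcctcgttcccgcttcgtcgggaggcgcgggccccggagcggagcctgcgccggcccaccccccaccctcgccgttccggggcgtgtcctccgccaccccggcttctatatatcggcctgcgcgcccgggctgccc
Igfbp5: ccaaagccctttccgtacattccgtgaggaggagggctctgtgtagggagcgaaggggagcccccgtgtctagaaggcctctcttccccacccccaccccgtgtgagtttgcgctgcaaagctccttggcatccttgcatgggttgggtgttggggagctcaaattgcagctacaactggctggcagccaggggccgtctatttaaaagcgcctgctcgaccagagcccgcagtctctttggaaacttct
Igfbp4: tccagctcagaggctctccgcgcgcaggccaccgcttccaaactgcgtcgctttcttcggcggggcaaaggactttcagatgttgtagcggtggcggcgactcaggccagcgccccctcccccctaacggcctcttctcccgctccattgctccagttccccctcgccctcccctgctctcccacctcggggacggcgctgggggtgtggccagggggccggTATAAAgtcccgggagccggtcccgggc
Igfbp2: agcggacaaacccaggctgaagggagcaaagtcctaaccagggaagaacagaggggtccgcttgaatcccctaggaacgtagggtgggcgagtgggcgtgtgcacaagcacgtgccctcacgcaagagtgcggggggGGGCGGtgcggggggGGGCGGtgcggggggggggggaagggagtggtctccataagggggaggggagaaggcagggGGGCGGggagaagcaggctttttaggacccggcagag
The exact bases TATAAA were found in Igfbp4 only, from 28 to 23 bases before the start, and 12.4% of 32851 promoters of this length hold them. Looser forms of the TATA box were not searched. The printed Igfbp3 and Igfbp5 sequences hold other TA-rich stretches toward their ends. GC boxes were found in Igfbp2 only, 3 of them, and 32.7% of promoters hold at least 1. The second start of Igfbp2, not printed, has an AP-1 site (TGANTCA, in 6.75% of promoters) from 39 to 33 bases before it. None of the 4 printed sequences held an AP-1 site, a cAMP response element (TGACGTCA, 1.55%), a FOXO site (TGTTTAC, 3.17%) or a STAT site (TTCNNNGAA, 7.02%). The GC content was 73.2% for Igfbp3, 58.8% for Igfbp5, 69.2% for Igfbp4 and 67.2% for Igfbp2, against a median of 52.4% over all promoters.

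Mice of one group differed together in some members. To describe this, the deviation of each mouse from its group mean of log2(CPM + 0.5) was correlated between members over 46 libraries, all but the shallow one of Day 1. Of 45 pairs, 7 passed at an adjusted permutation p below 0.05 with Pearson's r, all positive, and 6 of these also with Spearman's rho. The strongest was Igf2 with Igfbp2, with r = 0.754 and rho = 0.702 (each permutation p = 1e-05, the smallest that 100000 permutations can give, and 0.00045 after adjustment). Without the 2 mice farthest from the median of Igf2, r was 0.677. Within days it was 0.968 on Day 5 (n = 23), 0.677 on Day 42 (n = 10) and -0.0322 on Day 1 (n = 13). The relation thus did not hold on Day 1. Igf2 was low on both of the other days, with means of 0.358 (FGF1) and 1.08 CPM (vehicle) on Day 1 and 1.38 and 1.03 on Day 42. The part of its low level was not tested. On Day 42 Igfbp2 was highest in mouse 5 of both groups, at 28.9 CPM with FGF1 and 17.7 with vehicle.

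On Day 5 both genes were lowest in the same 2 non-diabetic vehicle mice, mice 2 and 3, with 9.54 and 9.05 CPM of Igf2 and 4.17 and 3.54 of Igfbp2. Both were highest in FGF1 mouse 6, with 105 and 31.9. The summed level of the 10 meningeal markers was also lowest in these vehicle mice, at 57.3 and 54.0 CPM, and highest in that FGF1 mouse, at 339, and its part in the relation was not tested. The ratio of Igf2 to Igfbp2 was looked at after the values had been seen. It ran from 2.68 to 3.78 in FGF1 mice, from 1.92 to 2.56 in non-diabetic and from 1.65 to 2.63 in diabetic-labelled vehicle mice. The FGF1 range lay just above both vehicle ranges, which overlapped each other. How many other ratios of genes would separate these groups was not examined. This pair was chosen for its relation, and no test was made.

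Igfbp3 with Igfbp4 gave r = 0.415 and rho = 0.451 (adjusted permutation p = 0.00889 and 0.0324), with r of 0.341 without the 2 mice farthest in Igfbp3. By day, r was 0.891 on Day 1, 0.339 on Day 5 and 0.0935 on Day 42. Igfbp3 with Igfbp5 reached r = 0.861 on Day 1, but it was -0.330 on Day 5 and -0.526 on Day 42, and over all days r = 0.597 and rho = 0.088 did not pass (adjusted permutation p = 0.0889 and 0.825). Igf1r with its substrate Irs1 was more even across days, at 0.599, 0.584 and 0.340 on Days 1, 5 and 42. Over all days r was 0.540 and rho 0.506 (adjusted permutation p = 0.00889 and 0.0169), with r of 0.525 without the 2 mice farthest in Igf1r. Igfbp2 with Igfbp4 gave r = 0.550 and rho = 0.520 (adjusted permutation p = 0.00889 and 0.013), with r of 0.540, 0.354 and 0.904 by day. Igf2 with Igfbp4 gave r = 0.394 and rho = 0.531 (adjusted permutation p = 0.0111 and 0.0099), with r of 0.539, 0.403 and 0.708 by day. Igf1r with Irs2 (r = 0.454) passed by both measures, and Igf1 with Igf1r (0.379) by Pearson's r only.

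**Figure D4:**
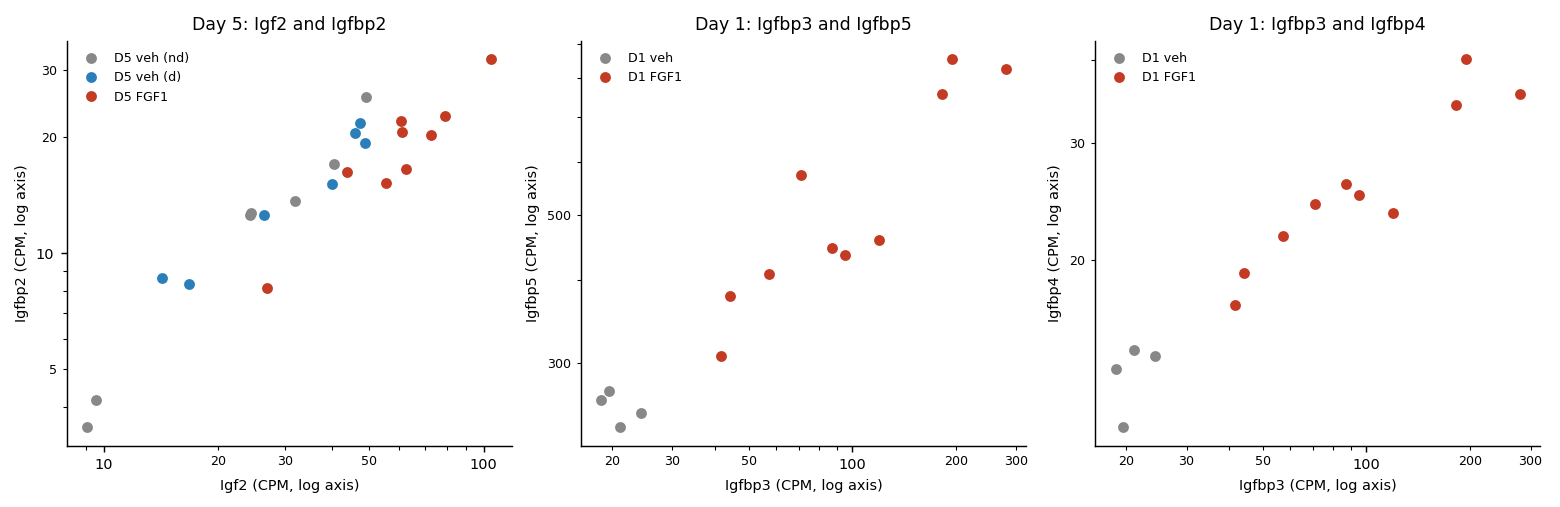
CPM of pairs of members in single mice on log axes: Igf2 and Igfbp2 on Day 5, and Igfbp3 with Igfbp5 and with Igfbp4 on Day 1 (grey, PF vehicle labelled non-diabetic; blue, PF vehicle labelled diabetic; red, FGF1). Igfbp2 follows Igf2 within each group of Day 5 with the FGF1 mice shifted to higher Igf2, and FGF1 mice 5, 8 and 10 of Day 1 form the upper right of the other panels.

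The genes most like each member other than Igfbp2 in these deviations, among genes with a mean of at least 5 CPM, were named as a description without a test. For Igf2 they were Slc22a6 (r = 0.876), Slc6a20a (0.867), Fmod (0.861), Nov (0.851) and Slc6a13 (0.85). Of these Slc22a6, Fmod and Slc6a13 are on the list of meningeal fibroblast markers. By Spearman's rho only Fmod (0.842) and Nov (0.819) stayed among the 5 most similar. Slc22a6 (0.799), Slc6a20a (0.811) and Slc6a13 (0.805) did not. Against the non-diabetic vehicle mice of Day 5, where Igf2 had a log2 FC of 1.22, Slc6a13 (1.02) passed, while Slc6a20a (0.60), Fmod (0.69), Slc22a6 (0.56) and Nov (0.05) did not.

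For Igfbp3 the most similar genes were Prg4 (0.869), a lubricating proteoglycan, Star (0.835), which moves cholesterol into mitochondria, Fbn1 (0.82), a microfibril protein, Plau (0.796), the urokinase plasminogen activator, and Stc1 (0.793). By Spearman's rho Star (0.34), Plau (0.404) and Stc1 (0.402) were much less similar, and only 1 of the 5 genes of Igfbp3, 2 of Igfbp4 and 0 of Igfbp5 stayed among the 5 most similar. Those of Igfbp4 were Fhl2, Chst15, Lmo4, Dkk3 and Wipf3 (0.764 to 0.81), and those of Igfbp5 were Fstl1, Cdh5, Dock5, Snx9 and Sfrp4 (0.716 to 0.796). Igf1 came closest to Sh3bgrl2, Hspa12a, F2r, Napepld and Foxp2 (0.823 to 0.865). The receptors and substrates gave lower values, with Crebbp, Pclo, Aak1, Cd47 and Inpp4a for Igf1r, Srrm2, Ankrd52, Spen, Zfyve1 and Kdm5c for Igf2r, Tnik, Tnr, 9330159F19Rik, Actr6 and the insulin receptor gene Insr for Irs1, and Inhbb, Auts2, Sez6l, Prep and Peak1 for Irs2 (0.667 to 0.758).

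Of 64 other genes of the IGF and insulin pathway on the list, 57 were in the table. On Day 1, 17 of the 57 rose and 10 fell, with 13 DEGs higher and 1 lower, and their median log2 FC was 0.09. The share that passed was 47.4%, near the 45.0% of all genes. Both remaining binding proteins in the table rose: Igfbp7, which binds IGF weakly, with a log2 FC of 1.15 (adjusted p = 1.13e-08) and every FGF1 mouse above every vehicle mouse, and Igfbp6, which prefers IGF2, with 1.42 (adjusted p = 0.0321). Igfbp6 had a mean of only 1.35 CPM in vehicle mice and lost its call without any one of 5 mice of Day 1. It was also lost with each day fitted alone (adjusted p = 0.0528), under quantile normalization (0.64, adjusted p = 0.308) and with sample weights (1.00, adjusted p = 0.38).

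Of the 5 listed proteases of the binding proteins and their inhibitors, 3 rose on Day 1, where 3322 of all 14221 genes rose. Pappa, the protease of IGFBP4, rose by 0.80 (adjusted p = 0.00457), from a mean of 1.34 to 2.42 CPM, a call lost with sample weights in limma (0.76, adjusted p = 0.107). Its inhibitors rose more. Stc1 went from 6.08 to 45.3 CPM (log2 FC 2.93, adjusted p = 4.97e-10) and Stc2 from 2.56 to 5.16 (1.03, adjusted p = 2.56e-06), both without overlap of the groups. Pappa2 and Htra1 did not pass.

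Downstream of the receptor the changes went both ways, on a day when 45.0% of all genes passed. Among 14 other adaptors 4 rose and 3 fell, and Shc3, an adaptor of neurons, had the largest change (1.55, adjusted p = 1.93e-06). Of 17 genes of PI3K, AKT and the lipid phosphatases 5 rose and 3 fell, with Akt2 at 0.86 (adjusted p = 9.22e-08). Of 14 genes of TSC and mTOR 3 rose and 1 fell, with the translation repressor Eif4ebp1 at 1.97 (adjusted p = 6.5e-10), from a mean of 0.973 to 3.79 CPM. Of 4 FOXO genes 2 fell, and the insulin receptor gene Insr had a log2 FC of -0.22 (adjusted p = 0.0369).

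On Day 5, 1 of these 57 genes (1.75%) passed against the non-diabetic vehicle mice, where 4.65% of all genes did. This was Inppl1, the lipid phosphatase SHIP2, with 0.54 (adjusted p = 4.49e-07). Against the diabetic-labelled mice 5 rose and 1 fell, which is 10.5% of the list and near the 9.21% of all genes, and the DEGs were Igfbp7 (0.60, adjusted p = 0.00155) and Inppl1 (0.50, adjusted p = 1.41e-06). On Day 42 none passed by edgeR or DESeq2. Igf2bp3, the only gene for an IGF2 mRNA-binding protein in the table, did not pass on any day.

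**Figure D5:**
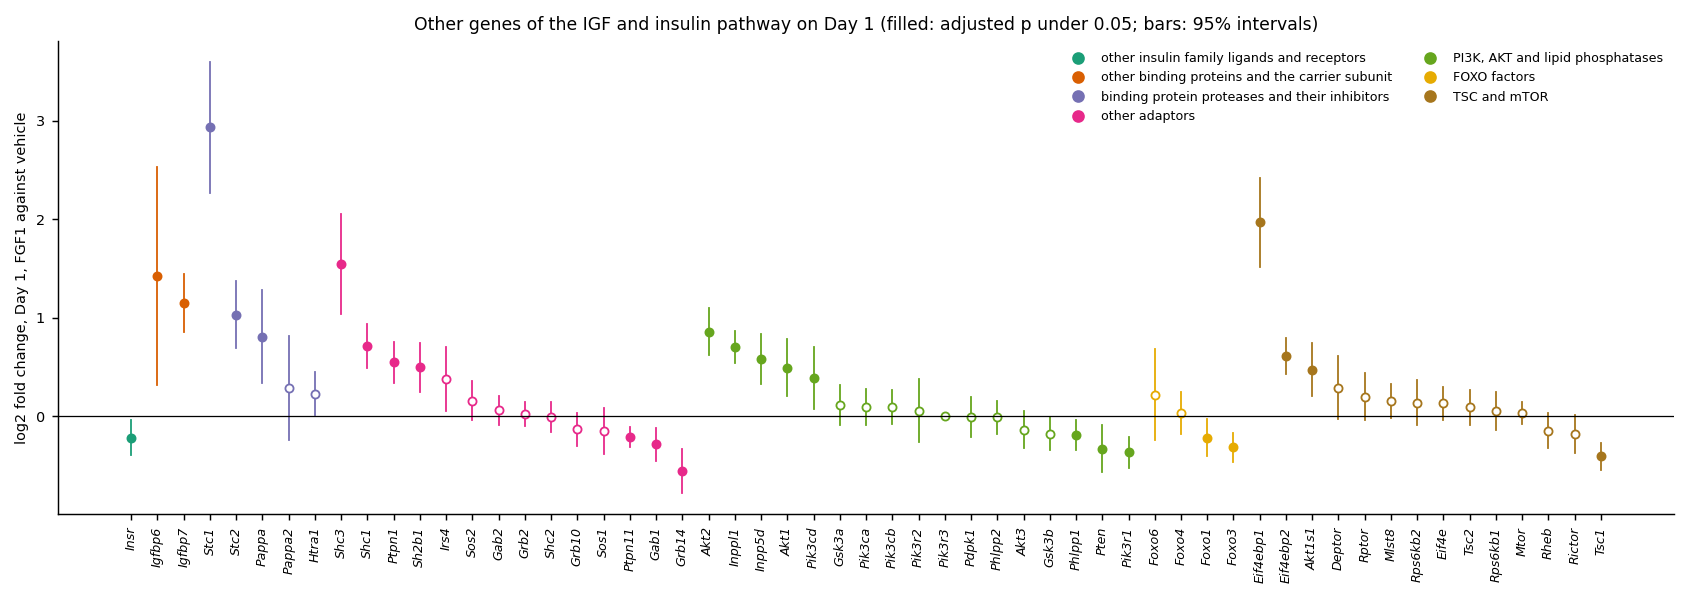
Log2 FC on Day 1, FGF1 against PF vehicle, of the 57 other genes of the IGF and insulin pathway, grouped by role and ordered by value, with 95% intervals. Filled points passed at an adjusted p below 0.05, with Stc1 at 2.93 and Eif4ebp1 at 1.97 the highest and Grb14 at -0.56 the lowest.

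Between the diabetic-labelled and non-diabetic PF vehicle mice of Day 5 no member passed by edgeR or DESeq2, and none had an unadjusted p below 0.05. The largest differences were 0.34 for Igf2 (95% interval -0.28 to 0.96) and 0.25 for Igfbp2 (95% interval -0.41 to 0.92). For the receptors and substrates the intervals lay within -0.15 and 0.23.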

How the data were processed

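RNA of the hypothalamus of single mice was sequenced by the authors, who deposited raw counts per gene for 47 libraries. The submitters' processing notes name STAR and DESeq2, while the counting program and its strand setting are not given in the sources used here. The deposited counts were tested with edgeR 4.0.16 in R 4.3.3 (TMM scaling, filterByExpr, quasi-likelihood test), with 1 mean for each of the 7 treatment-by-day groups and no other covariate. The filter removed 0 genes. Benjamini-Hochberg adjustment ran over all 14221 genes, with a threshold of 0.05, and DEGs also passed an absolute log2 FC of 0.5. Single values were compared by two-sided exact permutation tests on log2(CPM + 0.5). Differences between days are interaction contrasts, and those with Day 5 used the non-diabetic vehicle mice.

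Groups came from the sample labels, and replicates were numbered in accession order. Each library is labelled as 1 mouse. Coordinates and exon lengths are from GENCODE M21 (GRCm38), and promoters from RefSeq (GRCm38.p6), in which 10 of 10 members were matched. The genes named are the members, the pathway DEGs of each comparison with vehicle (the 8 largest changes at most) and the 5 genes most like each member by Pearson's r, beside whole marker lists. The genes most like Igfbp2 are not reported here. Insr, Grb14, Pappa2, Htra1 and Igf2bp3 were named outside this rule, after their values had been seen. The members and the gene lists were chosen with earlier results of these data known. Alternatives were DESeq2 1.42.0, other scalings and filters, limma 3.58.1 with quantile normalization or sample weights, each day fitted alone and leaving out each mouse. The omission of single Day 1 FGF1 and Day 5 mice was added after the data had been seen. The edgeR test was tested on simulated data. Library totals set the precision, and tests measure the spread between mice of a group. For edgeR this spread was estimated per gene in 1 fit over all 47 libraries. Standard errors and intervals of a day therefore also use the spread of the other days.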

Additional observations from a re-analysis of the deposited data

Results flagged for a closer look

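In 4 of 70 groups of 4 to 10 mice, 1 mouse lay far from the others of its group by Dixon's criterion, which chance alone meets in about 1 of 20 groups. On Day 42 the Igfbp4 level of FGF1 mouse 5 was 48.0 CPM, with the next at 13.8, and that of PF vehicle mouse 5 was 16.3, with the next at 10.4. On Day 5 the Igf2r level of FGF1 mouse 4 was 107, with the next at 101, and the Irs2 level of diabetic-labelled vehicle mouse 1 was 79.6, with the next at 66.6.

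The FGF1 effect differed between days in an interaction contrast of edgeR for 6 members. From Day 1 to Day 5 the log2 FC differed by 2.94 for Igf2, -0.32 for Igf2r, -0.46 for Irs2, -2.63 for Igfbp3, -0.97 for Igfbp4 and -0.99 for Igfbp5. From Day 1 to Day 42 it differed by 2.03 for Igf2, -0.37 for Igf2r, -0.43 for Irs2, -2.46 for Igfbp3 and -0.99 for Igfbp5. Each day was 1 preparation, so a difference between days and one between preparations cannot be told apart.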

How the results depend on the processing

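No called result reversed under the alternatives that were run. For single genes, 712 of 746 values under other settings kept their direction and their side of the threshold, as did 1950 of 2051 values with 1 mouse left out. A further 17 and 62 changed sign without a call on either side. The number of member DEGs on Day 5 against the non-diabetic vehicle mice, 1 by edgeR, was 2 with sample weights and 0 with at least 10 counts required in every library, a filter that removes Igf2. Against the diabetic-labelled mice, also 1, it was 0 with DESeq2 and 0 with that filter. The difference between Days 42 and 1 passed and exceeded 0.5 on the log2 scale for 3 members, and passed for 5 without a fold threshold. The pathway DEGs, 14 on Day 1, were 27 without a fold threshold and 8 with at least 10 counts in every library, and against the diabetic-labelled mice of Day 5, where there were 2, they were 6 without a fold threshold and 1 with DESeq2, with its size factors and with sample weights.

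With 1 mouse left out, member DEGs numbered 5 to 6 on Day 1, 1 on Day 5 against the non-diabetic and 0 to 1 against the diabetic-labelled mice, 0 on Day 42 and 0 between the vehicle groups. Members whose effect differed between days by more than 0.5 on the log2 scale numbered 3 to 4 for Days 5 and 1 (4 with all mice), 0 for Days 42 and 5 (also 0) and 2 to 4 for Days 42 and 1 (3). Pathway DEGs numbered 11 to 17 on Day 1, 1 and 1 to 2 on Day 5, and 0 on Day 42. No paired analysis was possible because the replicate numbers were given in accession order and the labels carry none. Igf2 on Day 1 had between 1 and 33 counts in FGF1 mice, which limits the precision of its fold change.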
